A study of Mus musculus with 6 samples.

Results

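The 6 genes of neutrophil secondary granule proteins, Ltf, Camp, Ngp, Lcn2, Chil3 and Fcnb, were followed through CD11b+ bone marrow cells of the femur and the mandible. They were taken by symbol from the list of genes counted in every library, which gives 6 genes of 32285. Their raw molecule counts were read per library and per cluster, for the 9 clusters the study assigned at resolution 0.1. The study used single-cell RNA sequencing to ask how myeloid cells differ between the jaw and a long bone. All 6 libraries came from C57Bl/6 mice aged 2 months, and the labels name no transgene or treatment for either group. The femur group held 3 libraries, of which replicate 1 was female and replicates 2 and 3 were male, and the mandible group held 3 male libraries. Marrow was flushed from the bones and CD11b+ cells were kept on magnetic beads. The submitters' protocol names femurs and tibiae for the long-bone marrow and extraction of the molars before the jaw was flushed. How many mice went into a library was not given in the sources used here, so a p-value measures only the spread between these libraries, which may be technical.

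Neutrophils fill their granules in order as they mature. Primary granules, with myeloperoxidase and elastase, form in promyelocytes, secondary (specific) granules form in myelocytes and metamyelocytes, and gelatinase granules and secretory vesicles form later. The messenger RNA of secondary granule proteins is therefore known as a sign of the middle of neutrophil development, and its transcription is known to need C/EBP epsilon. Ltf encodes lactotransferrin, which binds iron, and Lcn2 encodes lipocalin 2, which binds bacterial siderophores. Camp encodes the cathelicidin precursor of an antimicrobial peptide, and Ngp encodes neutrophilic granule protein, a cystatin-like relative of the cathelicidins. Chil3 encodes the chitinase-like lectin Ym1, which monocytes and macrophages of the mouse can also make, and Fcnb encodes ficolin B, a lectin of the complement system made by myeloid cells.

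Camp, Ngp and Ltf all lie on mouse chromosome 9. On build mm10, in the GENCODE vM21 annotation, Camp lies at chr9:109847379-109849617 on the minus strand, Ngp at chr9:110419747-110423012 on the plus strand and Ltf at chr9:111019271-111042767 on the plus strand. The gap is 570129 bases from Camp to Ngp and 596258 bases from Ngp to Ltf. Fcnb lies at chr2:28076378-28084885 and Lcn2 at chr2:32384633-32388252, both on the minus strand, with 4299747 bases between them. Chil3 lies at chr3:106147554-106167564 on the minus strand. No other annotated gene overlaps any of the 6 genes, and no annotated antisense partner could share their reads.

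The promoters are shown for 3 genes with different courses across the clusters: Ltf was highest in cluster 0, Fcnb was highest in cluster 4, and Chil3 kept the largest share of its library level in monocytes. Each line gives the 250 bases before the RefSeq start site (build GRCm38.p6), 5′ to 3′ on the gene's strand, with capitals at every match, on either strand, to TTGCNNAA, a form of the C/EBP site. The windows are chr9:111019042-111019291 on the plus strand for Ltf, chr2:28084879-28085128 on the minus strand for Fcnb and chr3:106167565-106167814 on the minus strand for Chil3.
Ltf: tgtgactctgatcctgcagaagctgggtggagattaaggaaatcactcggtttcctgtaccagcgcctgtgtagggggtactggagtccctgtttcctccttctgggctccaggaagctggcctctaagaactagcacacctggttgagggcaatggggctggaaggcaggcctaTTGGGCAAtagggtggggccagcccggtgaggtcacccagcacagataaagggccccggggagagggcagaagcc
Fcnb: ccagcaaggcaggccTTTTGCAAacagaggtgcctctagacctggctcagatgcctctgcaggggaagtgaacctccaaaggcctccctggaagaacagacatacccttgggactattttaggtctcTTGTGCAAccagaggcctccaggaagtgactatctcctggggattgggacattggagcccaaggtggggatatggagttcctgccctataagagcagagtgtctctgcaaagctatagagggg
Chil3: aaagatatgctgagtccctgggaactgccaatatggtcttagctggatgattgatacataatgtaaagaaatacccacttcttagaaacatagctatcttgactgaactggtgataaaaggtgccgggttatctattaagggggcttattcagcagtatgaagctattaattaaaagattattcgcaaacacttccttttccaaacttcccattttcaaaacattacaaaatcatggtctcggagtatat

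A match to TTGCNNAA stood in 4 of the 6 promoters, against 9.56% of all 32851 promoters of the same length. The first base of the match lay 75 bases before the start site in Ltf, 216 in Lcn2, and 235 and 123 in Fcnb. Ngp had matches at 138 and 11 bases, and Camp and Chil3 had none in this window. Against the GENCODE gene bounds, the Lcn2 window lies wholly inside the annotated gene, the windows of Camp, Ngp, Ltf and Fcnb reach into it, and only the Chil3 window lies outside it. The Ngp match at 11 bases thus falls inside the annotated gene. The match in Ltf overlaps a CCAAT box on the minus strand. The CCAAT letters, searched on both strands, were found in 4 of the 6 promoters (Ltf, Ngp, Chil3 and Fcnb) and in 33.8% of all promoters. The PU.1 letters GAGGAAG were found in 1 of 6 (Lcn2) against 10.6%, and the RUNX letters TGTGGT in 0 of 6 against 14.0%. A match is a description of letters and not a bound site.

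The study kept 69776 cells, and the libraries held between 82962160 and 244946998 unique molecular identifiers (UMIs, each standing for 1 captured RNA molecule), with a median of 6924 to 9158 per cell. Levels are given as CPM, the UMIs of a gene per 1000000 UMIs of the same library and cluster. Any pair of libraries shared 15 to 70 cell barcodes, at most 0.651% of the smaller library. The neutrophil markers Ly6g, Csf3r, S100a8, S100a9, Cxcr2 and Mmp8 together reached 147621 to 369201 CPM in clusters 0 to 4. The precursor markers Elane, Mpo, Prtn3 and Ctsg together reached 1308 to 3495 CPM in cluster 4 and 6.52 to 25.7 CPM in clusters 0 to 3. Cluster 5 carried monocyte markers (2831 to 4417 CPM) and cluster 6 carried B cell markers (6392 to 11981 CPM). Cells with the reference label neutrophil made up 96.0% of cluster 7 and 87.6% of cluster 8, and globin and Car2 together reached 32003 to 245650 CPM in cluster 8.

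Expression of the secondary granule genes was concentrated in clusters 0 and 4. The 6 genes together took 10.4% ± 0.296 of all UMIs in cluster 4 and 9.75% ± 0.360 in cluster 0 (SD, n = 6 libraries). Their joint share was 2.53% ± 0.657 in cluster 3, 1.42% ± 0.546 in cluster 2 and 0.772% ± 0.441 in cluster 1. Every library thus kept clusters 4 and 0 well above the other neutrophil clusters, since the lowest share there was 9.29% and the highest share in clusters 1 to 3 was 3.16%. Clusters were defined by the authors from the genes of these same cells, so differences between clusters are described here without a test.

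The iron and siderophore binders peaked in cluster 0. Ltf had its highest level there, with a lowest, median and highest library of 11850, 13061 and 15906 CPM. In cluster 4 the corresponding values were 7395, 7913 and 8882 CPM, so the ranges did not overlap and the mean was 1.66-fold higher in cluster 0. Ltf fell to a median of 3075 CPM in cluster 3, 1513 CPM in cluster 2 and 652 CPM in cluster 1, where the libraries ran from 242 to 1945 CPM. Lcn2 was also highest in cluster 0 (12168, 13804 and 14449 CPM), followed by cluster 4 (10703, 11126 and 12062 CPM), a 1.22-fold difference of the means without overlap. Lcn2 declined less than the others. It stood at a median of 7921 CPM in cluster 3, 4716 CPM in cluster 2 and 2711 CPM in cluster 1.

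The cathelicidin and its relative differed in where they peaked. Camp was highest in cluster 4 (39107, 43733 and 46444 CPM) and next in cluster 0 (27514, 30650 and 33596 CPM), 1.42-fold apart in the means without overlap. Ngp reached 33806, 34837 and 37831 CPM in cluster 0 and 30901, 32367 and 34094 CPM in cluster 4. Those 2 ranges overlapped for Ngp, although within every library its level was higher in cluster 0 than in cluster 4. The gap was smallest in mandible replicate 1, at 33865 CPM in cluster 0 and 33826 CPM in cluster 4. Camp had medians of 5492, 2660 and 1348 CPM in clusters 3, 2 and 1, and Ngp had medians of 9996, 4417 and 1952 CPM there.

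Of the lectin-like proteins, Fcnb was the earliest of the set by cluster, and Chil3 lay close to Camp. Chil3 was highest in cluster 4 (6511, 7631 and 9107 CPM) and stood at 4290, 4652 and 6207 CPM in cluster 0. Fcnb was the most restricted of the 6 genes. It reached 1098, 1476 and 1758 CPM in cluster 4 and 165, 239 and 348 CPM in cluster 0, a 5.94-fold difference of the means, and no library of clusters 1 to 3 exceeded 18.6 CPM. Of all Fcnb UMIs of a library, 76.7% ± 1.61 came from cluster 4 and 18.1% ± 3.09 from cluster 0 (SD, n = 6). For Ltf the corresponding shares were 26.1% ± 4.20 and 61.0% ± 6.25. Camp lay between them, with 45.3% ± 2.95 from cluster 4 and 45.4% ± 4.42 from cluster 0. Chil3 was close to Camp, with 46.7% ± 3.24 from cluster 4 and 42.4% ± 5.11 from cluster 0.

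**Figure D1:**
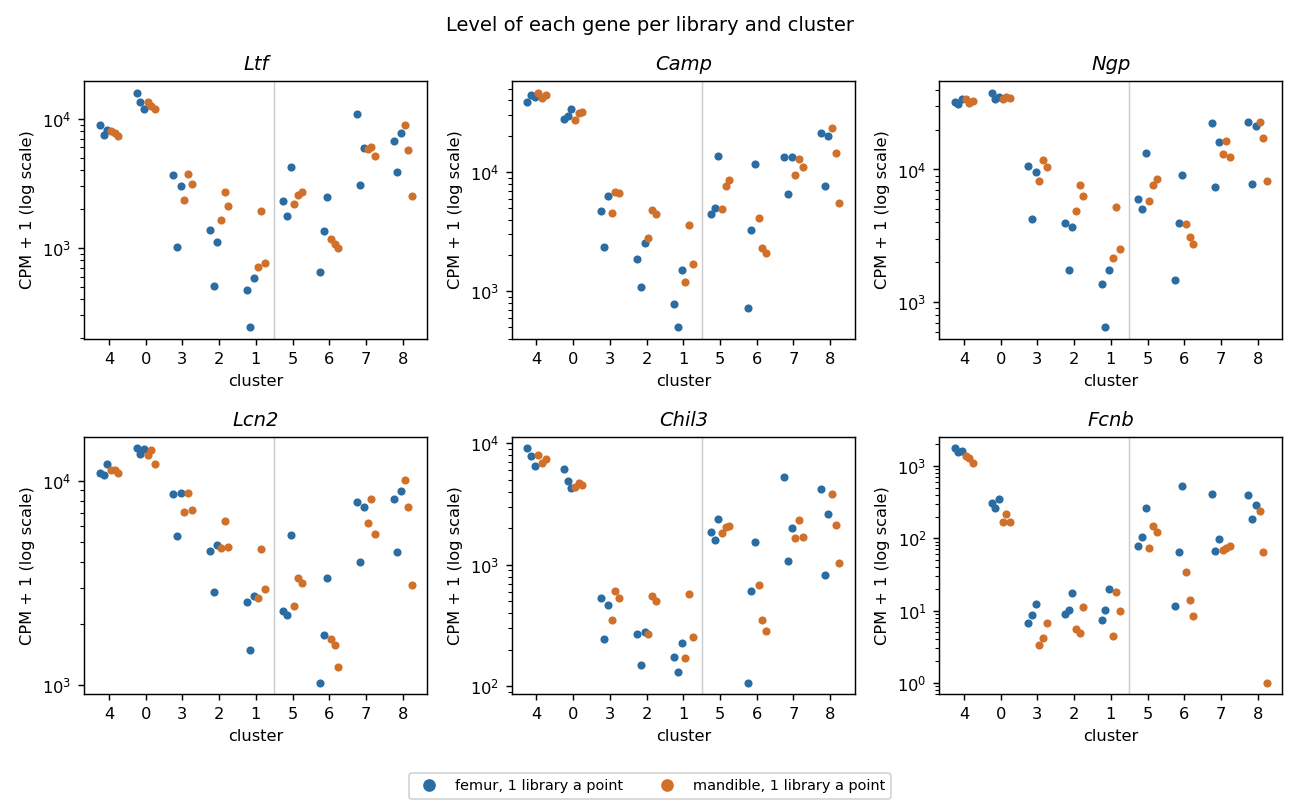
Level of each gene as CPM + 1 on a log axis in each of the 9 clusters, with neutrophil clusters left of the grey line in the order 4, 0, 3, 2, 1 and the other clusters right of it; each point is 1 library. All 6 genes had their highest means in clusters 4 and 0, although Fcnb in cluster 0, at 165 to 348 CPM, overlapped clusters 5 to 8. Fcnb dropped below 18.7 CPM in clusters 1 to 3, and mandible replicate 3 had no Fcnb UMI in cluster 8.

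The remaining clusters were mixed and spread widely. In cluster 7 Ltf ran from 3050 to 10867 CPM and Camp from 6523 to 13445 CPM. In cluster 8, which held 11 or more cells per library, Camp ran from 5502 to 23466 CPM. Fcnb had 0 of 111960 UMIs in cluster 8 of mandible replicate 3 (15 cells), which allows a level of up to 26.8 CPM by counting error. For all 6 genes the ranges of clusters 7 and 8 overlapped each other, and for Ltf the range of cluster 7 also overlapped that of cluster 4.

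Within cluster 0 the genes also differed by cell cycle call. The study's table labels cells of cluster 0 as G1 (18083 cells), S (442 cells) or G2M (736 cells). Fcnb was higher in S cells than in G1 cells of the same library in 6 of 6 libraries, with a mean log2 ratio of 1.64 (1.15 to 2.44), and its mean was 225 ± 68.9 CPM in G1 and 689 ± 161 CPM in S (SD, n = 6). In G2M cells Fcnb stood at 551 ± 98.3 CPM. Chil3 was higher in G2M than in G1 cells in 6 of 6 libraries (mean log2 ratio 0.63, range 0.51 to 0.86), and Camp likewise (0.36, range 0.25 to 0.60). Ltf went the other way. Its log2 ratio was negative in 6 of 6 libraries for S (-0.42, range -0.60 to -0.19) and for G2M (-0.58, range -0.71 to -0.44). Lcn2 was lower in G2M than in G1 in 6 of 6 libraries (-0.25), whereas its ratio for S was negative in 4 of 6. Ngp was negative in 4 of 6 libraries for S and 5 of 6 for G2M. In cluster 4, which held 88 cells called G1, the signs were the same in part. There Fcnb was higher than in G1 cells in 6 of 6 libraries for S (mean log2 ratio 0.96) and in 5 of 6 for G2M (0.37), and Chil3 in 3 of 6 for S (-0.075) and 5 of 6 for G2M (0.22). Ltf was lower in 5 of 6 for S (-0.23) and 4 of 6 for G2M (-0.046), and Lcn2 in 5 of 6 for each (-0.15 and -0.21). Camp was lower in 5 of 6 for S (-0.013) and in 3 of 6 for G2M (0.046). Phase calls and clusters both derive from the expression of these cells, so no test was made.

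**Figure D2:**
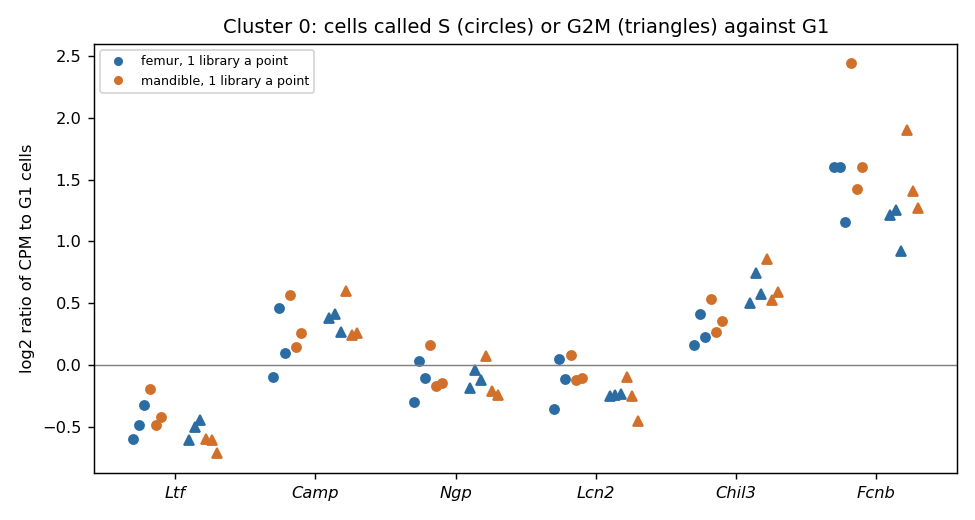
Log2 ratio of the CPM in cells called S (circles) or G2M (triangles) to the CPM in cells called G1, in cluster 0; each point is 1 library and the line marks no difference. Fcnb and Chil3 lay above the line in every library and Ltf lay below it in every library.

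From cell to cell, the pairs differed between the clusters. Within each library, Spearman's rho was computed across the cells of a cluster for each pair of genes, on each gene's share of the cell's UMIs. In cluster 4 the rho of Ltf with Fcnb ran from -0.48 to -0.24 over the 6 libraries, and in cluster 0 from -0.24 to -0.11. Ltf with Ngp ran from 0.51 to 0.69 in cluster 4 and from 0.30 to 0.54 in cluster 0. Camp with Chil3 ran from 0.66 to 0.73 in cluster 0 but from 0.17 to 0.39 in cluster 4. Chil3 with Fcnb was positive in cluster 0 (0.48 to 0.54) and negative in cluster 4 (-0.39 to -0.021). Ltf with Chil3 ran from 0.35 to 0.56 in cluster 4 and from -0.047 to 0.14 in cluster 0. The cells of a library share its depth and free RNA, and shares of 1 total are not independent, so these are descriptions.

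The genes with the most similar course across the 9 clusters differed among the 6. Likeness was measured as Pearson's r of the mean log2 CPM over 9 clusters, among 4981 other genes that reached 50 CPM in some cluster, and the points share the same 6 libraries. For Ltf the closest genes were Olfml2b (0.995), Ngp (0.989) and Prom1 (0.988). Ngp was closest to Prom1 (0.993), Olfml2b (0.993) and Lbp (0.991). Camp was closest to Lbp (0.994), Ffar2 (0.990) and Prom1 (0.988). Lcn2 was instead closest to Anxa1 (0.990), Abhd5 (0.978) and Cd177 (0.975), the last a surface protein that is itself stored in specific granules. Chil3 was closest to Lta4h (0.985), Lmo1 (0.985) and Agtrap (0.984). Fcnb was closest to Ms4a3 (0.983), which was on the primary granule list, Gatm (0.977) and Orm1 (0.974). Between members, r was lowest for Lcn2 with Fcnb (0.479) and for Lcn2 with Chil3 (0.683).

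Other granule genes set these courses in context. All 6 genes of the primary granule list had their highest mean in cluster 4, for example Elane with 1058 CPM in cluster 4 against 4.85 CPM in cluster 0. Of 14 other specific granule genes, 4 were highest in cluster 0 (Olfm4, Cd177, Cybb and Itgam, which encodes the CD11b used for the selection) and 2 in cluster 4 (Orm1 and Cyba). Mmp8, a collagenase, was highest in cluster 3 with 5420 CPM against 322 CPM in cluster 4. Pglyrp1 was also highest in cluster 3, Hp and Adam8 in cluster 2, and Slc11a1 in cluster 1. Lyz2 and Ptx3 (0.414 CPM) were highest in cluster 5, and Bpi (0.312 CPM) in cluster 7. The transcription factor Cebpe had a mean of 539 CPM in cluster 4 and 342 CPM in cluster 0, against 43.1 to 98.2 CPM in clusters 1 to 3.

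The relatives of Chil3 and Fcnb had levels of their own. Chil4, a close relative of Chil3 whose reads could be split with it, did not exceed 1.05 CPM in any cluster of any library. Chil1, another chitinase-like gene, ran from 223 to 435 CPM in clusters 0 to 4, and 84.6% to 96.9% of cluster 0 cells held a UMI of it. Among clusters 0 to 4 its mean was lowest in cluster 4 at both sites, where that of Chil3 was highest. Fcna, the other ficolin of the mouse, reached 15.5 to 222 CPM in cluster 5 and at most 1.85 CPM in clusters 0 to 4.

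In droplet data, free RNA gives UMIs in cells that do not express a gene, so the background of the 6 genes was read in cells that should lack them. In the 858 cells of cluster 6 labelled B cells, with a median depth of 2840.5 to 5096.5 UMIs per library, Ltf stood at 173 ± 57.2 CPM, Camp at 451 ± 181 CPM and Fcnb at 8.75 ± 5.53 CPM (SD, n = 6). Expressed as a share of the level over all cells of the same library, the 6 genes lay between 2.07% and 2.75% on average. S100a8, an abundant neutrophil gene that was not among the 6, lay at 2.35%. Averaged over the libraries, the 6 genes and S100a8 thus stood near 1 ratio in these cells. Within single libraries the ratios were less alike. They ran from 1.23% (Fcnb) to 3.42% (Lcn2) in femur replicate 3 and from 3.46% (S100a8) to 4.71% (Ltf) in femur replicate 2. A UMI of Camp was found in 77.8% of B cells on average and a UMI of Ltf in 47.3%. After each cell was thinned to 1000 UMIs these shares were 33.3% and 12.9%. Read over the whole of cluster 6 the levels were several times higher (Ltf 1296 CPM, 19.0% of the library's level), and 138 of the 1009 cells of cluster 6 carried the neutrophil label.

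In monocytes, Chil3 and, at a lower level, Fcnb stood above the other 4 genes and S100a8. The average shares of all these genes lay above the 2.07% to 2.75% read in B cells. In the 3734 cells of cluster 5 labelled monocytes, at a median depth of 8022 to 10257.5 UMIs, Ltf, Camp, Ngp and Lcn2 stood at 4.84%, 5.47%, 4.99% and 5.34% of the library's level, and S100a8 at 4.85%. Chil3 stood at 39.9% ± 5.77 (SD, n = 6; lowest library 33.3%, median 38.6%, highest 48.8%). Its level was 1449 ± 181 CPM, against 334 ± 174 CPM for Ltf. The lowest library for Chil3 was above the highest library for the 4 genes with S100a8, which reached 10.5%. Of the monocytes, 36.3% held 10 or more Chil3 UMIs, with libraries from 29.9% to 41.7%, whereas 1.96% held 10 or more of Ltf. Of the B cells, 0.350% held 10 or more Chil3 UMIs. Among monocytes this share of Chil3 was 29.9% to 34.2% in the femur libraries and 37.4% to 41.7% in the mandible libraries, with no test. The Chil3 level of the same monocytes overlapped between the sites, at 1139 to 1548 CPM in the femur and 1475 to 1641 CPM in the mandible. Fcnb stood at 14.1% ± 5.06 of the library's level, or 59.5 ± 26.5 CPM, with libraries from 7.07% to 19.4%. In 6 of 6 libraries Fcnb stood above Ltf, Camp, Ngp, Lcn2 and S100a8 of the same library, although ranges across libraries overlapped. Macrophage-labelled cells (482) held 226 ± 125 CPM of Chil3 and dendritic cells (174) held 94.0 ± 69.4 CPM, below the 1139 CPM of the lowest monocyte library. The 100 cells labelled stem cells ranged from 45.2 to 4105 CPM of Chil3 (median library 173 CPM), the highest being a library with 5 such cells, and their Fcnb, at 56.5 ± 79.0 CPM, overlapped that of the monocytes. Cluster 5 also held 2529 cells with the neutrophil label, 34.4% of it, in which Ltf stood at 5389 ± 920 CPM, Chil3 at 2856 ± 328 CPM and Fcnb at 210.2 ± 81.5 CPM, the means of all 3 genes being above those of the monocytes.

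**Figure D3:**
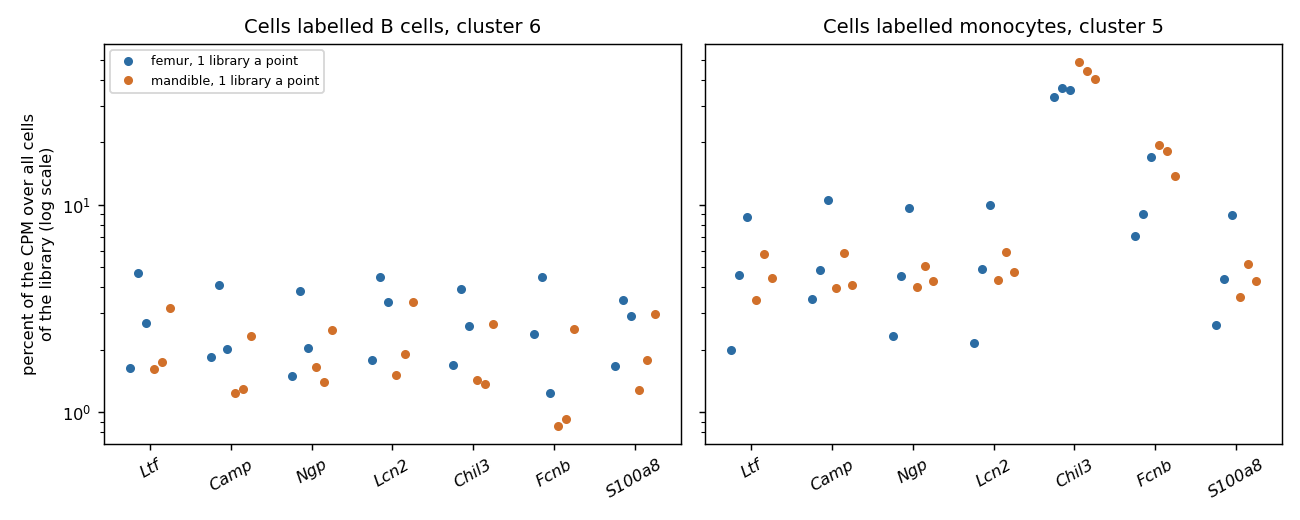
Level of the 6 genes and S100a8 in cells labelled B cells (left) and monocytes (right) as percent of the level over all cells of the same library, on a log axis; each point is 1 library. In B cells all genes averaged 2.07% to 2.75%, and in monocytes Chil3 stood apart at 33.3% to 48.8%.

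The comparison of the skeletal sites asked whether these genes differ between mandibular- and femur-derived cells of the same cluster. None of the 54 pairs of gene and cluster passed the edgeR quasi-likelihood test at a false discovery rate of 0.05, with a lowest adjusted p of 0.191. Of these pairs, 14 had an unadjusted p under 0.05, against 8.42% of all pairs of gene and cluster tested, and DESeq2 called 3, which were Ltf, Camp and Ngp in cluster 2, where it called 1.85% of all genes. Calls by edgeR were rare among all genes. The share called by edgeR was 0.0163%, 0.0842%, 0.0416%, 0.0108% and 0.0245% of the genes tested in clusters 0 to 4, 0.0842% in cluster 7 and 0% in clusters 5, 6 and 8. Over all cells of a library, 0 of 6 genes and 0% of all genes were called, 1 of the 6 had an unadjusted p under 0.05 (Fcnb, log2 fold change -0.58 ± 0.25, SE; 4.68% of all genes had such a lower value), and DESeq2 called 0 of 6. Positive log2 fold changes mean a higher fitted value in the mandible, after TMM scaling, and some values near 0 differ in sign from the means of the CPM.

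Fcnb had lower values in the mandible in both clusters where it was highest. In cluster 4 the femur libraries stood at 1758, 1584 and 1609 CPM and the mandible libraries at 1368, 1279 and 1098 CPM. The sites did not overlap there, and the log2 fold change was -0.37 ± 0.13 (SE, 95% interval -0.66 to -0.07, adjusted p = 0.317, edgeR). In cluster 0 the femur libraries stood at 306, 260 and 348 CPM and the mandible libraries at 165, 218 and 168 CPM. These did not overlap either, with a log2 fold change of -0.69 ± 0.20 (-1.15 to -0.22, adjusted p = 0.527, edgeR). Of all genes, the share whose libraries did not overlap with the mandible lower was 10.1% in cluster 4 and 8.63% in cluster 0. Neither difference passed correction. The share of cluster 0 cells with 10 or more Fcnb UMIs was 11.5% to 16.5% in the femur and 6.24% to 8.06% in the mandible. This share depends on depth. Median depth of cluster 0 was 11376 to 13212.5 UMIs per cell in the femur libraries and 8553 to 11354 in the mandible libraries. The part of depth in this share was not tested. Without the female femur library the log2 fold change remained negative in both clusters. Leaving it out could not bring overlap, since every femur library already stood above every mandible library there. The part of sex was not tested.

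At a much lower level, Fcnb was also lower in the mandible in cluster 3, with 5.65, 7.70 and 11.4 CPM in the femur libraries and 2.35, 3.19 and 5.64 CPM in the mandible libraries (log2 fold change -1.23 ± 0.40, adjusted p = 0.771, edgeR). In cluster 3, 3.87% of all genes showed such a lower range without overlap. These values lay near the background of 8.75 CPM read in B cells. By library, B cells held 12.5, 17.4 and 7.5 CPM of Fcnb in the femur and 2.52, 3.91 and 8.69 CPM in the mandible. The clusters come from the same libraries and are not separate observations. Across them the fitted log2 fold change of Fcnb was negative in 9 of 9. In clusters 1 and 5 it turned positive when femur replicate 3 was left out, and in cluster 1 also without mandible replicate 1. In cluster 6 the value of -3.84 ± 0.92 was -1.61 without femur replicate 3, which stood at 535 CPM against 7.28 to 63.8 CPM in the other libraries. The summed precursor markers of cluster 6 were likewise highest in that library, at 155 CPM.

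The other 5 genes showed no difference larger than the spread of the libraries in the 2 clusters where they were highest. In cluster 4 their log2 fold changes ran from -0.05 (Ltf) to 0.10 (Camp), and in cluster 0 from -0.11 (Chil3) to 0.04 (Camp), all with overlapping libraries. For Ltf in cluster 0 the 95% interval was -0.40 to 0.29, and for Camp in cluster 4 it was -0.33 to 0.52. Differences within these bounds thus remained compatible with the data from 3 libraries a site. In cluster 3 the 5 genes ran from 0.01 (Lcn2) to 0.40 (Camp) with overlap in each, and the values of Ltf, Ngp, Lcn2 and Chil3 turned negative without femur replicate 2.

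In clusters 2 and 1 the same 5 genes had higher values in the mandible. In cluster 2, Ltf stood at 1378, 506 and 1112 CPM in the femur libraries and at 1649, 2708 and 2093 CPM in the mandible libraries (log2 fold change 1.14 ± 0.37, adjusted p = 0.251, edgeR). Camp stood at 1846, 1084 and 2540 CPM in the femur libraries and 2780, 4841 and 4488 CPM in the mandible libraries (1.16 ± 0.36, adjusted p = 0.239, edgeR). Ngp stood at 3961, 1737 and 3656 CPM and 4872, 7695 and 6339 CPM (1.04 ± 0.35, adjusted p = 0.259, edgeR). These 3 genes of 6 did not overlap between the sites, against 6.48% of all genes in cluster 2 with such a higher range. The lowest library was femur replicate 2 and the highest mandible replicate 2 for each of the 3. Chil3 (0.96 ± 0.34) and Lcn2 (0.40 ± 0.28) overlapped. An unadjusted p under 0.05 with a higher value was reached by 4 of 6 genes, against 5.82% of all genes, and DESeq2 gave adjusted p of 0.0319 for Ltf, 0.0210 for Camp and 0.0376 for Ngp.

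In cluster 1, Ngp stood at 1365, 647 and 1754 CPM in the femur libraries and at 2151, 5180 and 2535 CPM in the mandible libraries (log2 fold change 1.52 ± 0.45, adjusted p = 0.191, edgeR). Ltf stood at 467, 242 and 586 CPM and 717, 1945 and 770 CPM (1.54 ± 0.46, adjusted p = 0.197, edgeR). Both did not overlap, so 2 of 6 genes stood apart against 4.88% of all genes in cluster 1. Camp (1.35 ± 0.50), Chil3 (1.05 ± 0.43) and Lcn2 (0.73 ± 0.31) overlapped. An unadjusted p under 0.05 with a higher value was reached by 5 of 6 genes, against 7.04% of all genes, and DESeq2 called 0 of 6. Mandible replicate 2 was the highest library for these 5 genes. Its summed erythroid markers in cluster 1 also stood highest, at 1186 CPM against 39.6 to 334 CPM in the other libraries, and the part of this in the result was not tested. Without it the log2 fold change was 0.86 for Ltf, 0.98 for Ngp, 0.69 for Camp, 0.40 for Lcn2 and 0.34 for Chil3, for each gene the lowest of the 6 fits that each left out 1 library. Femur replicate 2 was the lowest library for Ngp and Ltf. Its B cells held 632 CPM of Ngp and 258 CPM of Ltf, near its cluster 1 values. In the other libraries cluster 1 stood above the B cells for both genes. The part of background in these values was not tested.

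In clusters 5 and 6 the fitted log2 fold change was negative for all 6 genes, with overlapping libraries in each. In cluster 5 the other 5 genes ran from -0.25 (Lcn2) to -0.031 (Chil3, whose mean CPM was 1991 in the mandible and 1945 in the femur, against the fitted sign), and in cluster 6 from -0.97 (Camp) to -0.52 (Lcn2). Each of these 10 values turned positive without femur replicate 3. That library also had the highest summed neutrophil markers of both clusters, at 149988 CPM in cluster 5 and 105338 CPM in cluster 6, and their part in the result was not tested.

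**Figure D4:**
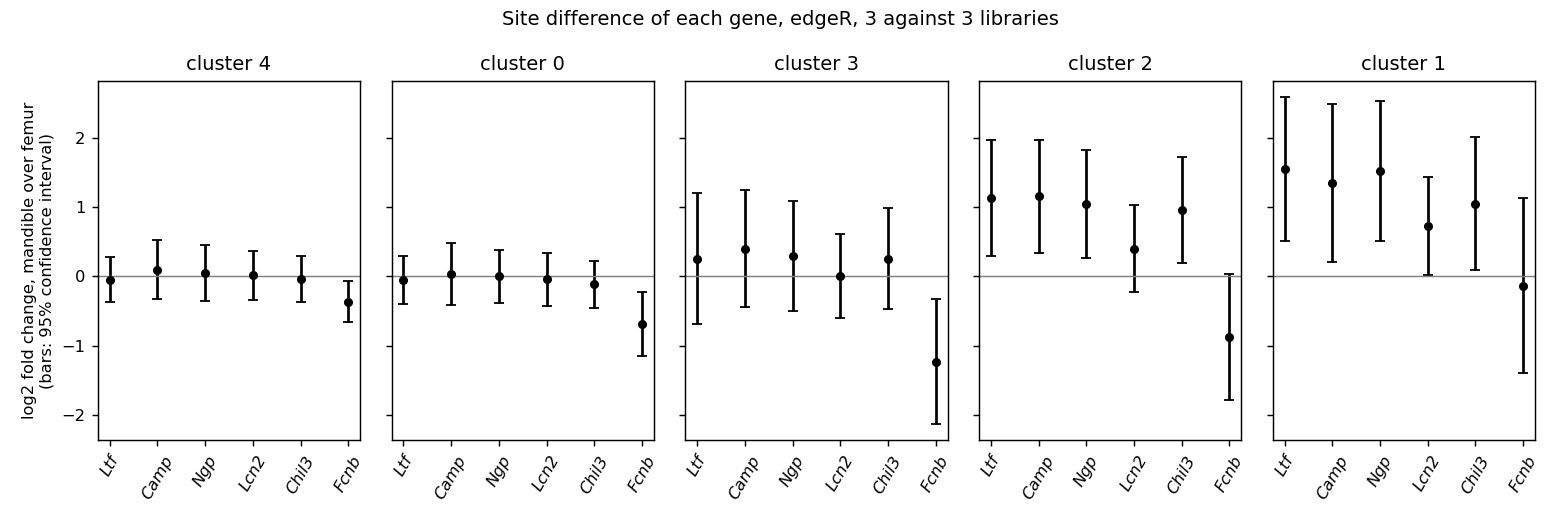
Log2 fold change of each gene, mandible over femur, in the 5 neutrophil clusters 4, 0, 3, 2 and 1; points are the edgeR estimates from 3 against 3 libraries and bars are 95% confidence intervals. The intervals of 5 genes centre near 0 in clusters 4 and 0 and lie higher in clusters 2 and 1, whereas the Fcnb estimates lie below 0 with intervals that cross 0 in clusters 2 and 1; no value passed adjustment over all genes.

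The summed Ltf levels of clusters 1 and 2 rested on a minority of cells. In cluster 1 the 5% of cells with most Ltf held 72.7% of all Ltf UMIs, and the median cell of a library held 0 or 1 UMI of Ltf. In cluster 2 the corresponding share was 65.4%. Lcn2 was spread more widely in cluster 2. There 52.6% to 70.0% of cells in the femur and 68.0% to 76.5% in the mandible held 10 or more of its UMIs. The 6 genes together took a median of 0.239% to 0.436% of a cell's UMIs in cluster 1 in the femur and 0.2435% to 0.397% in the mandible, so the typical cell overlapped between the sites. At the 95th percentile of cells of cluster 2 the joint share was 1.60% to 4.34% in the femur and 4.36% to 5.99% in the mandible, a gap of little size, and in cluster 1 these ranges overlapped. The share of cluster 2 cells with 10 or more Ltf UMIs was 4.50% to 10.7% in the femur and 16.3% to 24.9% in the mandible, and for Ngp 19.8% to 31.0% and 43.0% to 51.1%. In cluster 1 the shares for Ltf were 0.579% to 2.60% and 4.42% to 11.1%. The share of cluster 1 cells with any UMI of Ltf ran the other way, at 54.0% to 70.1% in the femur and 40.6% to 51.7% in the mandible, and that of Chil3, whose libraries also did not overlap, had means of 45.4% and 33.3%. After each cell was thinned to 1000 UMIs the shares of both genes overlapped between the sites, at 18.0% to 29.0% and 17.4% to 20.7% for Ltf. Median depth overlapped between the sites in both clusters, from 3827 to 7106.5 UMIs per cell. These shares use the same UMIs as the sums, and no further test was made on them.

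**Figure D5:**
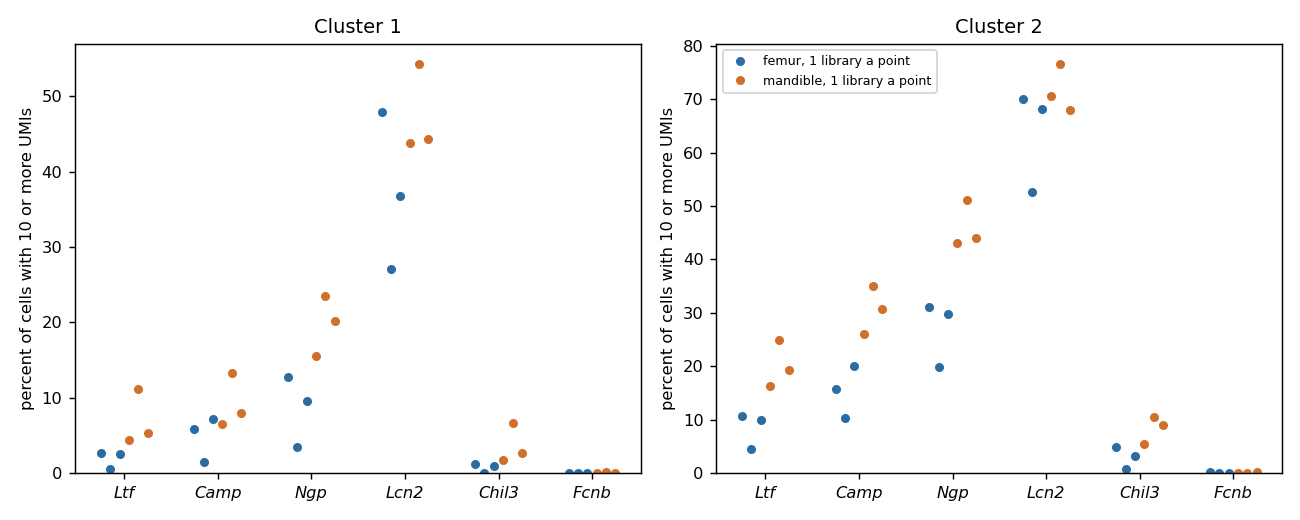
Percent of the cells of clusters 1 and 2 that held 10 or more UMIs of each gene; each point is 1 library and both axes start at 0. The 3 mandible libraries lay above the 3 femur libraries for Ltf, Camp, Ngp and Chil3 in cluster 2 and for Ltf, Ngp and Chil3 in cluster 1. Lcn2 in both clusters and Camp in cluster 1 overlapped, and Fcnb was near 0 in all. The share of all genes with such a gap was not computed for this measure.

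The decline from cluster 0 to a later cluster was then compared between the sites as a step, the difference of log2 CPM between 2 clusters of the same library. Steps were taken after TMM scaling over the libraries of both clusters, so they differ from ratios of the plain CPM given above. From cluster 4 to cluster 0, Ltf rose by a mean of 0.90 in the femur and 0.89 in the mandible, and Fcnb changed by -2.29 and -2.60. The site difference of the Fcnb step was -0.31 ± 0.16 (adjusted p = 0.859, limma). No gene of 12915 was called for this step (0%), and 5.64% of all genes and 0 of the 6 had an unadjusted p under 0.05. From cluster 0 to cluster 3, Ltf changed by -2.36 in the femur and -1.86 in the mandible (difference 0.49 ± 0.39, adjusted p = 0.770, limma), and Lcn2 by -0.68 and -0.58. None of the 6 genes and 0% of all genes were called, with 0 of 6 and 8.71% of all genes at an unadjusted p under 0.05.

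The steps from cluster 0 to clusters 2 and 1 were added after the site values of those clusters had been seen. From cluster 0 to cluster 2, Camp changed by -4.0 in the femur and -2.83 in the mandible, a difference of 1.17 ± 0.25 (adjusted p = 0.0581, limma). Ltf differed by 1.28 ± 0.31, Ngp by 1.10 ± 0.26 and Chil3 by 1.06 ± 0.27, with adjusted p of 0.0786, 0.0741 and 0.0831 by limma. None of the 6 was called, against 0.731% of all genes, and 5 of 6 had an unadjusted p under 0.05, against 15.9% of all genes. Leaving out femur replicate 3 brought 4 of the 6 past the threshold, with 3.65% of all genes, and leaving out femur replicate 2 brought 1, with 0.526% of all genes, so the call depended on single libraries. From cluster 0 to cluster 1 the differences were 1.51 ± 0.36 for Ngp and 1.51 ± 0.39 for Ltf (adjusted p of 0.124 and 0.154, limma), again with 0 of 6 called against 0.327% of all genes and with 5 of 6 at an unadjusted p under 0.05, against 12.7% of all genes. The gap from cluster 0 to the B cell cluster 6 differed by -0.24 ± 0.52 for Ltf, with 0 of 6 and 0% of all genes called, and 0 of 6 at an unadjusted p under 0.05 against 4.01% of all genes.

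Other granule genes were read in the same fits. In cluster 4, 5 of 6 primary granule genes had higher values in the mandible at an unadjusted p under 0.05, against 6.21% of all genes, and 0 were called, with a list median of 0.93 against 0.00 over all genes tested. Elane, neutrophil elastase, stood at 1394 ± 349 CPM in the mandible libraries against 721 ± 91.8 CPM in those of the femur (SD, n = 3; log2 fold change 0.98 ± 0.17, adjusted p = 0.205, edgeR). Prtn3, Mpo and Prss57 had log2 fold changes of 0.93, 0.93 and 0.39. In the same cluster Fcnb had a lower value in the mandible. Of the other specific granule genes, 6 of 12 tested had higher values and 1 a lower value in cluster 1 at an unadjusted p under 0.05 (7.04% and 6.54% of all genes), with a list median of 0.44, and 0 were called. Cybb, a subunit of the oxidase that specific granules carry, stood at 230 ± 54.6 CPM in femur-derived and 494 ± 76.0 CPM in mandibular-derived cells there (1.24 ± 0.21, adjusted p = 0.0729, edgeR). Cd177 followed in cluster 1 (1.02 ± 0.23), and Mmp8 (0.94 ± 0.24) and Adam8 (0.57 ± 0.16) in cluster 4.

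Among the regulators of granule genes, Cebpe stood at 46.9 ± 4.0 CPM in femur-derived and 79.2 ± 4.82 CPM in mandibular-derived cells in cluster 2 (log2 fold change 0.79 ± 0.13, adjusted p = 0.0701, edgeR), without overlap, as for 6.48% of all genes. Klf5 in cluster 1 (0.75 ± 0.21) and Gfi1 in cluster 2 (1.01 ± 0.34, at most 1.85 CPM in any library) also had positive values. Cebpa in cluster 2 was positive too (0.48 ± 0.27), with overlapping libraries and an unadjusted p of 0.114 by edgeR. Of 8 regulators tested in cluster 2, 3 had a higher value at an unadjusted p under 0.05, against 5.82% of all genes, and 0 were called, with a list median of 0.31. Of 9 receptors and partners of the secreted proteins, 4 or 5 were tested in each of clusters 0 to 4 and 0 were called. Tlr4, a receptor of bacterial lipopolysaccharide, had a lower value in the mandible in cluster 2 (-0.58 ± 0.15, adjusted p = 0.171, edgeR), and P2rx7 (2.15 ± 0.53, under 1.38 CPM in every library) and Fpr2 (0.46 ± 0.18) had higher values in cluster 4. Cd14 in cluster 3 had 0.99 ± 0.45 (adjusted p = 0.999, edgeR), with mandible replicate 2 at 26.3 CPM and the other mandible libraries at 9.29 and 8.76 CPM, within the femur range of 5.55 to 9.34 CPM.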

How the data were processed

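Raw UMI counts per gene and barcode, deposited by the authors, came from 10x 3′ libraries counted against mm10; the submitters' notes name Cell Ranger 7.0.1 and the matrix header 7.1.0, and strand use was not given in the sources used here. The authors' metadata table gave each kept cell's counts, mitochondrial percent (up to 20), genes (600 to 6000), cluster, phase and label. How doublets were treated was not given in the sources used here, and no caller was run. The authors' marker table holds their own cluster comparisons and was not used.

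Counts were summed per library and cluster. Sites were compared with edgeR 4.0.16 (quasi-likelihood, TMM, default low-count filter; R 4.3.3), with Benjamini-Hochberg adjustment over all genes of a cluster at a false discovery rate of 0.05. Steps were tested with limma 3.58.1 on log2 CPM (TMM over both clusters, prior count 2). DESeq2 1.42.0, other filters, blocks and left-out libraries were alternatives. Scripts were tested on simulated data. Intervals of fold changes cover the spread between libraries, and the limit given for a count of 0 covers counting error only.

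The 6 genes and the lists were chosen with earlier results of these data known. Also named were 3 paralogs, up to 4 genes per list with the smallest edgeR p over clusters 0 to 4, and the 3 genes most like each member. Gene IDs matched GENCODE vM21 for 32158 of 32285 genes, and all 6 promoters matched the RefSeq table.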

Additional observations from a re-analysis of the deposited data

Results flagged for a closer look

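Barcodes that the study removed held the 6 genes too. In the 480 removed barcodes with 6000 or more genes, the 6 genes took 5.50% ± 1.81 of the UMIs (SD, n = 6 libraries), with libraries from 2.09% to 7.25%. In the 3743 removed barcodes with 600 genes or fewer they took 1.56% ± 1.55, with femur replicate 1 highest at 4.42% and the other libraries between 0.422% and 2.27%. Femur replicate 1 also held 2250 of these barcodes. These values stand out only as a signal in barcodes that no comparison used, and they were not set against a background level.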

How the results depend on the processing

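No pair of gene and cluster (0 of 54) was called under edgeR, with RLE factors, without the deepest 5% of cells and with any 1 library left out. DESeq2 called 3 genes in cluster 2. Without the low-count filter 5 genes were called in cluster 1, 5 in cluster 2, and 1 in each of clusters 3, 6 and 7. Over all genes this setting called 577 of 21828 in cluster 1, 461 of 20564 in cluster 2 and 134 of 19584 in cluster 3. It called 39 of 17630 in cluster 6 and 118 of 17321 in cluster 7. Over all genes of clusters 0 to 4, edgeR called 1 to 9 genes per cluster, DESeq2 34 to 280, RLE factors 1 to 15, no filter 70 to 577, and leaving out 1 library 0 to 96. The step from cluster 0 to 2 had 0 to 4 members called when 1 library was left out. For single fold changes, 293 values under other settings kept their direction and side of the threshold, 36 passed it and 30 turned sign. The causes were not tested. Sequencing depth and 3 libraries a site limit the precision.

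The replicate block by title number called 0 of 54 pairs, and those numbers did not pair the samples (correlation of deviations in cluster 0 of -0.044, -0.40 and 0.10). A replicate block by the library number that 4 male libraries share (2 pairs) called 20 of 54. These were 1, 5, 6, 2 and 6 members in clusters 0, 1, 2, 3 and 6. Over all genes it called 455 to 1587 per cluster in clusters 0 to 4, and 85 of 8251 in cluster 6. Libraries numbered 6 had correlations of 0.44, 0.50, 0.48 and 0.47 for clusters 0 to 3, in that order. Those numbered 7 had 0.38, 0.29, 0.32 and 0.35. The 2 pairs reached only 0.0031 and 0.13 for cluster 4, against 0.14 and 0.33 for cluster 6. Both were negative for cluster 8 alone (-0.63 and -0.16). The labels do not say what the library number marks. Under this block the log2 fold change turned to 0.089 (Ltf), -0.062 (Camp), 0.016 (Lcn2) and 0.022 (Chil3) in cluster 0, to 0.044 (Ltf) and 0.081 (Chil3) in cluster 4, to 0.56 (Ltf), 0.50 (Ngp) and 0.48 (Chil3) in cluster 7, to 0.37 (Ltf), 0.56 (Camp) and 0.60 (Ngp) in cluster 8, and to 0.091 (Ltf), 0.030 (Ngp) and 0.029 (Lcn2) over all cells. Under the title block it turned to 0.011 (Chil3, cluster 5), 0.050 and 0.080 (Ltf and Ngp, cluster 7), and 0.0084 and -0.057 (Ngp and Lcn2, cluster 8).

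Signs also turned without the filter for Ngp in cluster 0 (-0.033), Lcn2 in cluster 3 (-0.014) and Chil3 in cluster 8 (-0.035). In cluster 8, Lcn2 and Chil3 turned with DESeq2 (-0.023 and -0.034) and with RLE factors (-0.023 and -0.034). Without the deepest 5% of cells, Chil3 turned in cluster 5 (0.017), Lcn2 and Chil3 in cluster 8 (-0.15 and -0.18), and the site difference of a step for Ltf from 4 to 0 (0.048), Ltf from 0 to 6 (0.15) and Fcnb from 0 to 1 (-0.10). The mean Chil3 level of cluster 5 was then 1667 CPM, against 1968 CPM. With B cell labels only, cluster 6 held 173 CPM of Ltf, 444 of Ngp, 238 of Lcn2 and 82.0 of Chil3, against 1296, 4025, 1770 and 598 CPM. After thinning, 18.9% of cluster 6 cells held a UMI of Ltf, 37.4% of Camp, 40.6% of Ngp, 29.6% of Lcn2 and 11.3% of Chil3, against 51.8%, 80.1%, 78.4%, 64.7% and 37.3% as counted.

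Leaving out 1 library at a time turned the sign of these log2 fold changes, given with their range over the 6 fits. In cluster 0, Ltf ran from -0.093 to 0.020, Camp ran from -0.064 to 0.21, Ngp ran from -0.067 to 0.076 and Lcn2 ran from -0.14 to 0.051. In cluster 1, Fcnb ran from -0.87 to 0.47. In cluster 3, Ltf ran from -0.14 to 0.52, Ngp ran from -0.046 to 0.56, Lcn2 ran from -0.23 to 0.25 and Chil3 ran from -0.043 to 0.48. In cluster 4, Ltf ran from -0.11 to 0.019, Lcn2 ran from -0.036 to 0.12 and Chil3 ran from -0.11 to 0.047. In cluster 5, Ltf ran from -0.50 to 0.34, Camp ran from -0.54 to 0.61, Ngp ran from -0.51 to 0.46, Lcn2 ran from -0.50 to 0.45, Chil3 ran from -0.17 to 0.26 and Fcnb ran from -0.82 to 0.40. In cluster 6, Ltf ran from -0.90 to 0.084, Camp ran from -1.49 to 0.49, Ngp ran from -1.08 to 0.24, Lcn2 ran from -0.84 to 0.088 and Chil3 ran from -1.39 to 0.19. In cluster 7, Ltf ran from -0.46 to 0.36, Camp ran from -0.19 to 0.36, Ngp ran from -0.38 to 0.27, Lcn2 ran from -0.14 to 0.34 and Chil3 ran from -0.83 to 0.31. In cluster 8, Ltf ran from -0.61 to 0.35, Camp ran from -0.73 to 0.33, Ngp ran from -0.46 to 0.32, Lcn2 ran from -0.48 to 0.39 and Chil3 ran from -0.68 to 0.40. Over all cells, Camp ran from -0.24 to 0.25, Ngp ran from -0.31 to 0.15 and Lcn2 ran from -0.32 to 0.12. The same held for steps. From 4 to 0, Ltf ran from -0.058 to 0.043, Camp ran from -0.16 to 0.061 and Chil3 ran from -0.20 to 0.016. From 0 to 3, Ltf ran from -0.10 to 0.83, Ngp ran from -0.013 to 0.60 and Lcn2 ran from -0.14 to 0.22. From 0 to 6, Ltf ran from -0.86 to 0.36, Camp ran from -1.22 to 0.69, Ngp ran from -0.98 to 0.41, Lcn2 ran from -0.72 to 0.18 and Chil3 ran from -1.33 to 0.91. From 0 to 2, Fcnb ran from -0.65 to 0.20.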
